A study of Mus musculus with 16 samples.

Results

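The genes described here encode 5 microtubule-associated proteins (Map1a, Map1b, Map2, Map6 and Mapt), the 4 stathmins (Stmn1, Stmn2, Stmn3 and Stmn4) and the growth cone protein Gap43. Every probe of the deposited table that carries one of these 10 symbols, or an older symbol of the same gene such as Mtap1b or Mtap2, was taken, which gave 19 of the 25697 probes, for 9 of the 10 genes (the table names 17871 genes). No probe was matched to Map1a, which is not analysed here. Map1b and Mapt had 4 probes each, Map2 had 3, Map6 and Stmn4 had 2, and the other 4 genes had 1.

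Hippocampal RNA of 16 mice was hybridised to 16 MouseRef-8 v2 expression beadchip arrays, a 1-colour platform on which each probe is read on many beads. Wild-type (WT) mice and Mef2c-het mice, which the labels call KO, were taken at postnatal day 1 (P1) and at P30, with 4 arrays in each of the 4 groups. Mef2c-het mice carry 1 allele of the transcription factor gene Mef2c from which exon 2 is deleted in all cells, and 1 normal allele. They were bred on the C57BL/6J background by crosses with WT littermates, and the labels give no treatment. Nothing in the labels gives the sex, the litter or the beadchip of a mouse, so p-values measure the spread between these arrays. In whole hippocampus, fewer cells of a type and less RNA per cell cannot be told apart.

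Microtubules are polymers of tubulin that carry transport along axons and dendrites and grow or shrink at their ends. Microtubule-associated proteins bind along the polymer and stabilise or bundle it, whereas stathmins bind free tubulin and favour disassembly. Gap43 sits at the inner face of the growth cone membrane, binds calmodulin and is phosphorylated by protein kinase C. In the newborn hippocampus axons and dendrites are still extending, and by P30 myelination and synapse formation are well advanced.

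Hippocampal markers were read on the arrays, with no other tissue to set them against. The arrays also showed some heterogeneity that bears on 2 of the genes. Of 10 hippocampal subfield markers, 9 had a tested probe. Among these 9, Prox1, C1ql2, Wfs1, Fibcd1, Grik4 and Spink8 were above background on 8 of 8 arrays at each age. Zbtb20 was above it on 8 of 8 P1 arrays and on 7 of 8 P30 arrays. Neurod6 was above background on 7 of 8 P1 arrays and on 0 of 8 P30 arrays. Dsp was above it on 0 of 8 P1 arrays and on 8 of 8 P30 arrays. The targeted gene overlapped between the genotypes at P30: its brightest probe (ILMN_2732465) read 9.61, 9.80, 9.80 and 9.62 in WT and 9.20, 9.76, 8.97 and 9.92 in Mef2c-het on the log2 scale, a difference of -0.25 (SE 0.17, adjusted p = 0.994). A second Mef2c probe (ILMN_2887992) differed by -0.29 (SE 0.16, adjusted p = 0.994). Whether any of these Mef2c probes lies in the deleted exon is not given in the sources used here, so they are no check of the labels. Clustering of whole arrays within each age set apart 5 arrays, namely replicate 8 of WT and of Mef2c-het at P1, replicates 6 and 7 of WT at P30 and replicate 7 of Mef2c-het at P30. These 5 arrays had a higher floor, with a 5th percentile of intensity of 140.0 to 161.4 against 105.8 to 130.8 on the other 11, and 12638 to 13290 probes above background against 13059 to 14150. By Xist and Y-linked transcripts, 5 of the 8 P1 mice read as female and 0 of the 8 P30 mice. All arrays set apart read as male, and the only WT P1 array read as male was among them. Outside them, the WT P1 arrays all read as female and the WT P30 arrays all as male. On those 11 arrays alone (the larger clusters), age and sex therefore cannot be told apart in WT mice. Where the array cluster or sex changed a call of one of the 19 probes, both values are given with that gene.

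Signals below are log2 quantile-normalised intensities, listed in the order of the replicate numbers (WT P1 1, 4, 5, 8; Mef2c-het P1 1, 2, 4, 8; WT P30 2, 3, 6, 7; Mef2c-het P30 3, 5, 6, 7). Levels of different probes cannot be set against each other. Changes are log2 differences with the standard error from a limma fit of all 16 arrays, and p-values carry the Benjamini-Hochberg adjustment across 14777 probes, those detected on at least 4 arrays. All 19 probes passed that filter. A probe is said to have risen or fallen when its adjusted p was under 0.05. Exact permutation tests over the 70 splits of 8 arrays were two-sided, and 0.0286 is the smallest p they can give.

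Age was the comparison in which these genes moved. From P1 to P30, 12 of the 19 probes passed the test in WT mice, 3 rising and 9 falling, where 59.7% of all tested probes passed (28% higher and 31.7% lower). In Mef2c-het mice 12 of 19 probes passed as well, again 3 rising and 9 falling, where 58.3% of all tested probes passed (26.9% higher and 31.4% lower). The arrays of the ages did not overlap for 11 of the 19 probes in WT mice (53.1% of all tested probes) and for 11 in Mef2c-het mice (52.5%). One of the 3 rising probes, Mapt ILMN_3034121, was above background at P30 alone and passed the filter through that age, so its count is no result. Without it, 11 of 18 probes passed in each genotype, 2 rising and 9 falling, and 10 did not overlap between ages. The shares that passed and that did not overlap were close to those of the whole array. The split by direction leaned to falling probes, 9 of 18 against 31.7% of all tested probes in WT and 31.4% in Mef2c-het mice. Several of these probes read the same gene, and this lean was not tested. The median log2 change of the 19 probes was -0.21 in WT and -0.22 in Mef2c-het mice, and that of all tested probes -0.03 and -0.02. Gap43, Stmn1, Stmn2, Stmn4 and the brightest probes of Mapt and Map1b fell in both genotypes, the brightest probe of Map6 rose in both, and no probe of Map2 or Stmn3 passed in either.

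**Figure D1:**
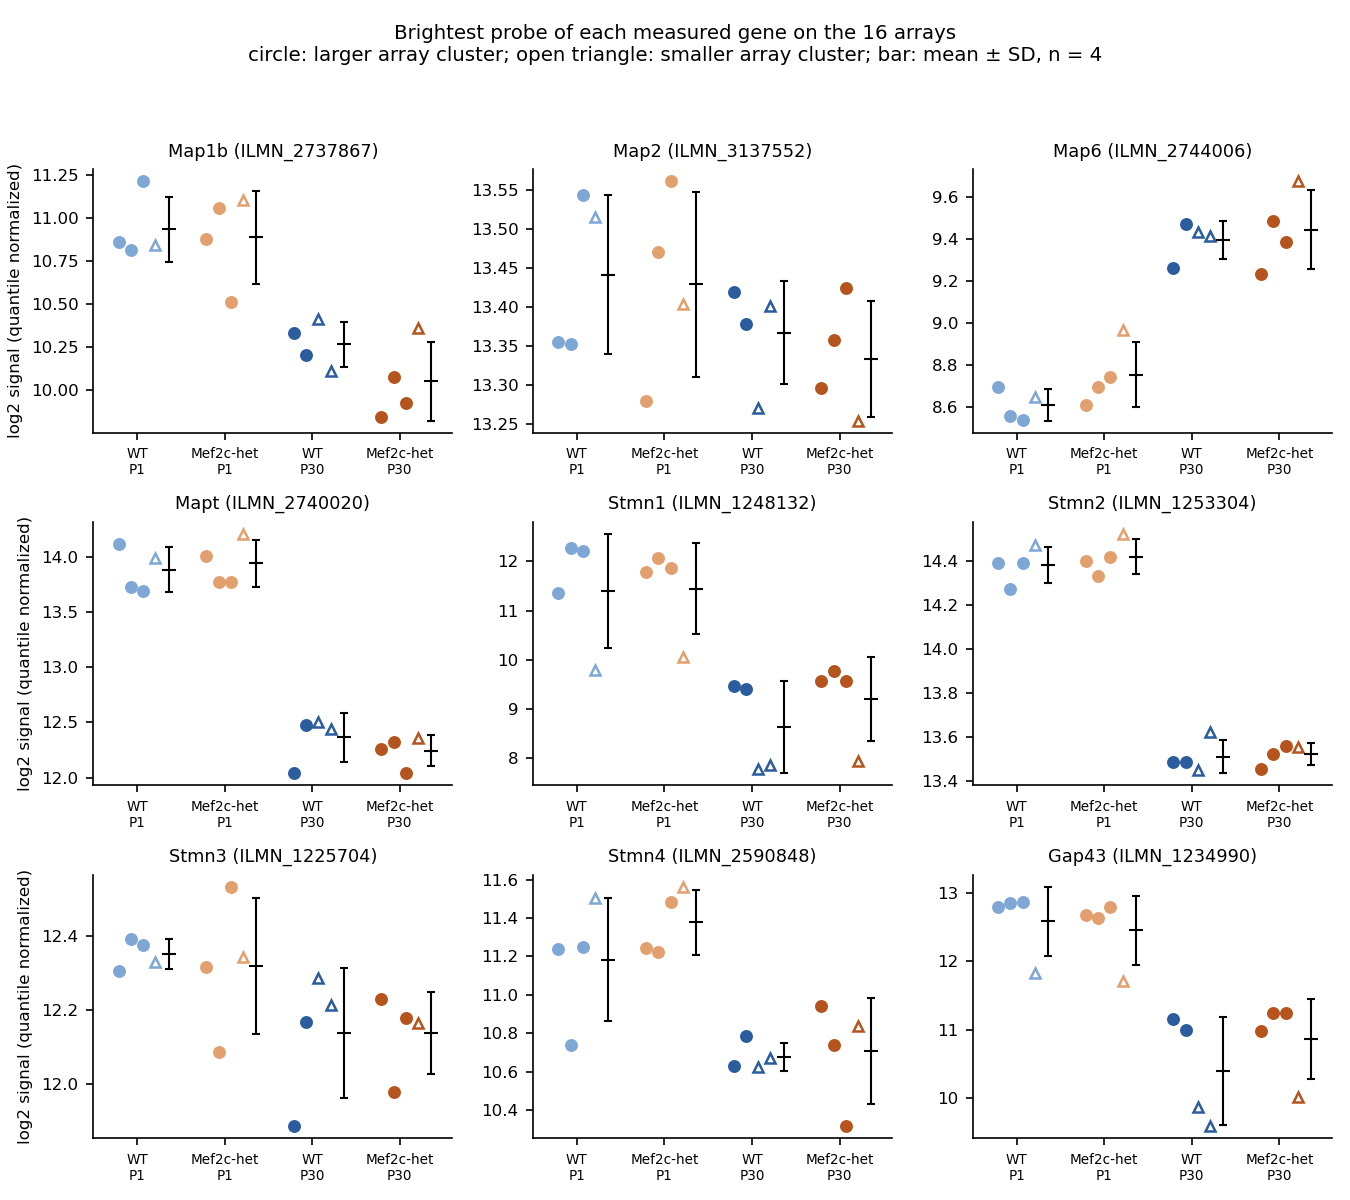
Log2 quantile-normalised signal of the brightest probe of each of the 9 measured genes on the 16 arrays, by genotype and age, with the mean ± SD of the 4 arrays of a group beside the points. Filled circles are arrays of the larger cluster at each age and open triangles the 5 arrays set apart. For Stmn1 and Gap43 the triangles lie lowest in every group, and Stmn2 separates the ages with little spread.

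Gap43, which marks growing and regenerating axons, was among the furthest fallers. At P1 its probe (ILMN_1234990) read 12.79, 12.85, 12.86 and 11.82 in WT and 12.67, 12.62, 12.79 and 11.71 in Mef2c-het mice. At P30 it read 11.15, 10.99, 9.86 and 9.59 in WT and 10.97, 11.24, 11.24 and 10.01 in Mef2c-het mice. Every P1 array was above every P30 array, but the arrays set apart were about 1 unit or more below the others of their group. The change was -2.18 (SE 0.38) in WT mice, 4.54-fold lower at P30 (adjusted p = 9.66e-05, exact permutation p = 0.0286), and -1.58 (SE 0.38) in Mef2c-het mice, 3-fold lower (adjusted p = 0.00172). A change of this size or more in the same direction was seen at 90 of the 14777 tested probes in WT mice and at 224 in Mef2c-het mice. On the 11 arrays of the larger clusters alone the change was -1.77 (SE 0.10, adjusted p = 2.16e-09) in WT and -1.55 (SE 0.09, adjusted p = 1.98e-09) in Mef2c-het mice. In WT mice that subset sets P1 replicates 1, 4 and 5, all read as female, against P30 replicates 2 and 3, both read as male. Over all alternative limma fits, the WT change lay between -2.44 and -1.61 (adjusted p at most 0.00554). The Mef2c-het change lay between -1.84 and -1.20 (adjusted p at most 0.0148).

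Stmn1, the stathmin found in dividing cells as well as in neurons, had the largest change with age of the 19 probes. At P1 its probe (ILMN_1248132) read 11.35, 12.27, 12.21 and 9.78 in WT and 11.80, 12.07, 11.87 and 10.06 in Mef2c-het mice. At P30 the signals were 9.47, 9.41, 7.78 and 7.85 in WT and 9.56, 9.78, 9.56 and 7.94 in Mef2c-het mice. The ages did not overlap within a genotype, and replicate 8 of each genotype at P1 came close to the highest P30 arrays. The change was -2.78 (SE 0.60) in WT mice, 6.86-fold lower (adjusted p = 0.000815, exact permutation p = 0.0286), and -2.24 (SE 0.60) in Mef2c-het mice, 4.72-fold lower (adjusted p = 0.00448). On the larger clusters alone it was -2.51 (SE 0.20, adjusted p = 1.04e-07) and -2.28 (SE 0.18, adjusted p = 7.11e-08). In WT mice that subset sets P1 arrays read as female against P30 arrays read as male. With sex as a covariate the WT change shrank to -1.76 (SE 0.67, adjusted p = 0.0397) and the Mef2c-het change to -1.56 (SE 0.60, adjusted p = 0.037). The only WT P1 array read as male was replicate 8, which was set apart and read lowest. Sex and array cluster therefore cannot be told apart in the WT value. Among Mef2c-het mice, P1 replicate 2 also read as male, was not set apart and read 12.07, the highest of its group.

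The spread of Stmn1 and Gap43 between arrays of one group followed the array clusters. At P1 the arrays set apart differed from the others by -2.0 log2 units for Stmn1, the lowest value of any of the 14777 tested probes, and by -1.0 for Gap43, a value that 203 probes reached. At P30 the differences were -1.66 and -1.26. For the other 17 probes the same difference lay between -0.19 and 0.45. After subtracting the group means, Stmn1 and Gap43 correlated with a Pearson r of 0.94 over the 16 arrays, a description of arrays that share these clusters. The mean log2 signal of 5 immature neuron markers was also lower on the arrays set apart, at 8.96 to 9.03 against 9.12 to 9.45 at P1 and 7.76 to 7.81 against 7.81 to 7.90 at P30. The P30 ranges almost met and lay near background. Of the 8 P30 arrays, Eomes was above it on 0, Sox4 on 4 and Neurod1 on 5. That of 9 microglia markers was lower on them at P30 (8.95 to 8.98 against 9.07 to 9.25) and within the range of the other arrays at P1. The part of those cells, of the higher floor or of sex in these 2 genes was not tested.

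**Figure D2:**
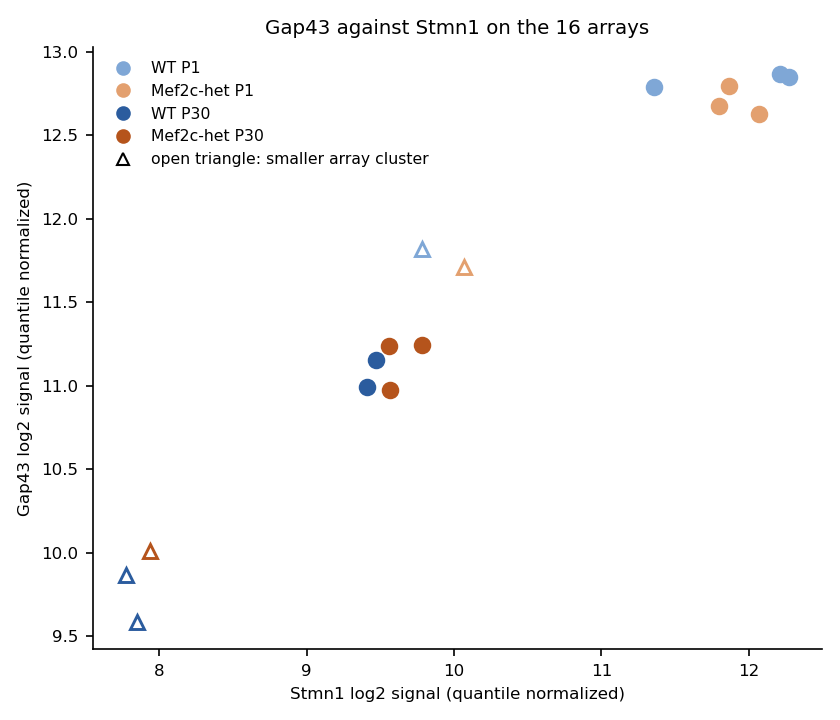
Gap43 against Stmn1 log2 signal on each of the 16 arrays, coloured by genotype and age, with open triangles for the 5 arrays set apart by clustering of whole arrays. The triangles lie to the lower left of the circles of their own age: at P1 they read 9.78 and 10.06 for Stmn1, and at P30 7.78, 7.85 and 7.94.

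The neuronal stathmins, which are anchored to membranes of the Golgi apparatus and transport vesicles, are Stmn2, Stmn3 and Stmn4. Stmn2 (also called SCG10) is enriched in growing axons. Its probe (ILMN_1253304) read 14.39, 14.27, 14.39 and 14.47 in WT and 14.40, 14.33, 14.42 and 14.52 in Mef2c-het mice at P1. By P30 they were 13.49, 13.49, 13.45 and 13.62 in WT and 13.45, 13.52, 13.56 and 13.55 in Mef2c-het mice. The arrays of each age lay close together, with no overlap between ages. The change was -0.87 (SE 0.06) in WT mice, 1.83-fold lower (adjusted p = 2.71e-09), and -0.90 (SE 0.06) in Mef2c-het mice, 1.86-fold lower (adjusted p = 2e-09). Both errors were far smaller than those of Stmn1.

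Stmn4 (RB3), a stathmin of the nervous system, was read by 2 probes. The brighter one (ILMN_2590848) read 11.24, 10.74, 11.25 and 11.50 in WT and 11.24, 11.22, 11.48 and 11.56 in Mef2c-het mice at P1. The P30 arrays read 10.63, 10.78, 10.62 and 10.67 in WT and 10.94, 10.74, 10.32 and 10.84 in Mef2c-het mice. In WT mice the lowest P1 array, replicate 4, lay among the P30 arrays, whereas the ages did not overlap in Mef2c-het mice. The change was -0.51 (SE 0.15, adjusted p = 0.00739) in WT and -0.67 (SE 0.15, adjusted p = 0.000952) in Mef2c-het mice. The dimmer probe (ILMN_2590845) fell by 0.46 in WT (SE 0.13, adjusted p = 0.00602) and by 0.52 in Mef2c-het mice (SE 0.13, adjusted p = 0.00278). On the larger clusters alone the WT change of the brighter probe was -0.37 and no longer passed (adjusted p = 0.0863).

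Stmn3 (SCLIP) is expressed throughout the nervous system. Its probe (ILMN_1225704) read 12.31, 12.39, 12.37 and 12.33 in WT and 12.32, 12.09, 12.53 and 12.34 in Mef2c-het mice at P1. Signals at P30 were 11.89, 12.17, 12.29 and 12.21 in WT and 12.23, 11.98, 12.18 and 12.16 in Mef2c-het mice. All WT arrays at P30 were just below all those at P1 (exact permutation p = 0.0286), while the Mef2c-het arrays overlapped. The difference was -0.21 (SE 0.09, adjusted p = 0.0658) in WT and -0.18 (SE 0.09, adjusted p = 0.114) in Mef2c-het mice. The WT difference passed without WT P30 replicate 6 (-0.26, adjusted p = 0.0375), on the larger clusters alone (-0.33, adjusted p = 0.0356) and with a block for array cluster (-0.28, adjusted p = 0.0261), and the Mef2c-het difference was -0.26 (adjusted p = 0.0249) without Mef2c-het P1 replicate 2.

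Mapt encodes tau, the microtubule-associated protein of axons, and its 4 probes did not move together. The brightest (ILMN_2740020) read 14.11, 13.73, 13.69 and 13.99 in WT and 14.01, 13.77, 13.77 and 14.21 in Mef2c-het mice at P1. At P30 it read 12.04, 12.48, 12.51 and 12.44 in WT and 12.26, 12.32, 12.04 and 12.36 in Mef2c-het mice. Every P30 array was more than 1 unit below every P1 array. The fall was 2.86-fold in WT mice (-1.52, SE 0.13, adjusted p = 2.97e-08) and 3.24-fold in Mef2c-het mice (-1.69, SE 0.13, adjusted p = 8.02e-09).

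A second Mapt probe (ILMN_1257750), listed by the array's design on the same transcript record, went the other way. At P1 it read 8.81, 8.45, 8.40 and 8.65 in WT and 8.62, 8.22, 8.52 and 9.26 in Mef2c-het mice. At P30 the signals were 10.27, 10.70, 10.40 and 10.35 in WT and 10.57, 10.63, 10.56 and 10.31 in Mef2c-het mice. Again no array of one age reached the other. The rise was 3.61-fold in WT mice (1.85, SE 0.17, adjusted p = 7.88e-08) and 3.64-fold in Mef2c-het mice (1.86, SE 0.17, adjusted p = 7.61e-08). Over the 16 arrays the 2 probes had a Pearson r of -0.91, and 0.67 once the group means were subtracted. Where on the transcript each probe lies is not given in the sources used here, so no single direction can be given for Mapt.

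The other 2 Mapt probes are listed on transcript variant 1. The dimmer one (ILMN_3034121) was above background on 0 of the 8 P1 arrays, on 4 of 4 WT and on 2 of 4 Mef2c-het arrays at P30, and so passed the filter through the age at which it was higher. Its measured P30 signal was at least 1.15-fold higher in WT mice, set against the lowest signal above background at P1. No such bound is given for Mef2c-het mice, where 2 of 4 P30 arrays were above background. The other probe (ILMN_3107817) read 8.13, 9.38, 8.06 and 8.18 in WT mice at P1 and 7.65, 7.89, 7.82 and 7.75 at P30. Its WT change of -0.66 (SE 0.21, adjusted p = 0.0129) was -0.34 (adjusted p = 0.00467) without WT P1 replicate 4, which stood high, and -0.52 with sex as a covariate, where it did not pass (adjusted p = 0.124). In Mef2c-het mice the difference was -0.43 (SE 0.21, adjusted p = 0.0904), although the ages did not overlap.

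**Figure D3:**
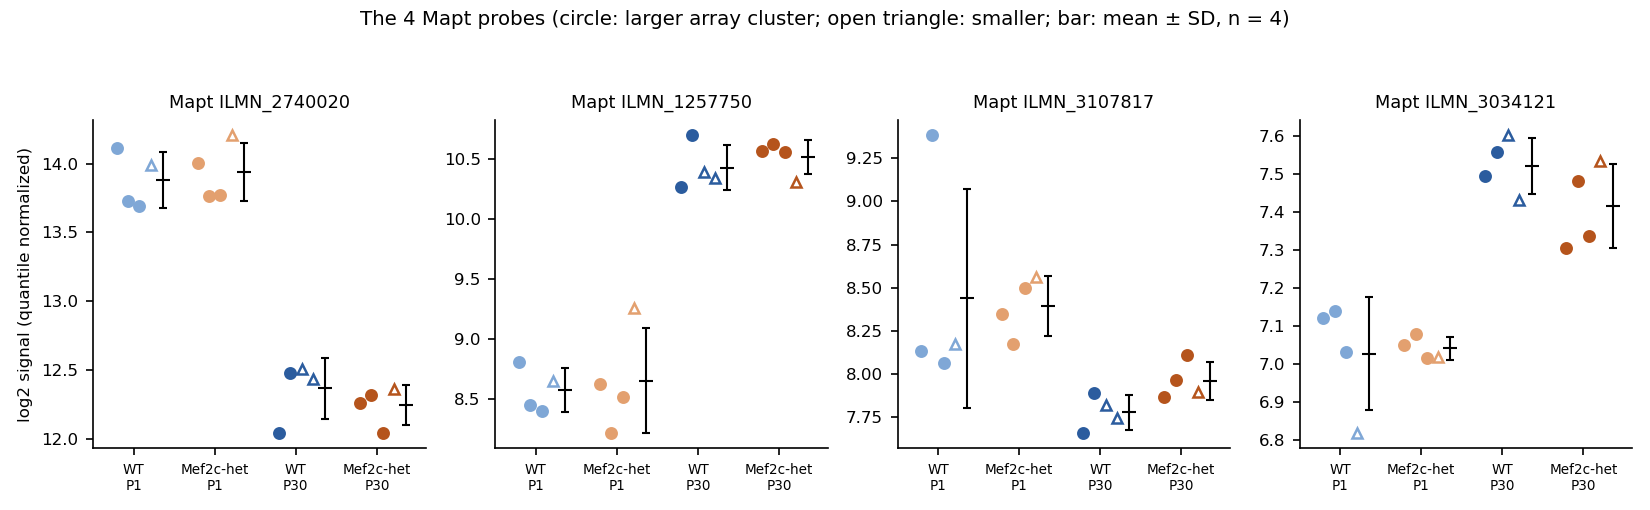
Log2 quantile-normalised signal of each of the 4 Mapt probes on the 16 arrays, with mean ± SD of 4 arrays, each panel on its own axis. The first probe fell from 13.88 ± 0.20 to 12.37 ± 0.22 in WT mice while the second rose from 8.58 ± 0.19 to 10.43 ± 0.19.

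Map1b, an early microtubule-associated protein of extending axons, fell at its brighter probes. The brightest (ILMN_2737867) read 10.86, 10.81, 11.21 and 10.84 in WT and 10.88, 11.06, 10.51 and 11.10 in Mef2c-het mice at P1. By P30 they were 10.33, 10.21, 10.41 and 10.11 in WT and 9.85, 10.08, 9.93 and 10.36 in Mef2c-het mice. The ages were separate in both genotypes. The change was -0.67 (SE 0.14, adjusted p = 0.000459) in WT mice, 1.59-fold lower, and -0.83 (SE 0.14, adjusted p = 5.59e-05) in Mef2c-het mice, 1.78-fold lower. A second probe (ILMN_2750248), dimmer, fell by 0.46 in WT (SE 0.10, adjusted p = 0.000578) and by 0.33 in Mef2c-het mice (SE 0.10, adjusted p = 0.00764).

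The 2 dimmest Map1b probes, near background, showed little change. For ILMN_2932081 the difference was -0.17 (SE 0.08, adjusted p = 0.0666) in WT and -0.22 (SE 0.08, adjusted p = 0.0214) in Mef2c-het mice. The WT value lay near the threshold and passed with sex as a covariate (-0.28, adjusted p = 0.0161), with a block for array cluster (-0.19, adjusted p = 0.0289), after scaling to a common median (-0.20, adjusted p = 0.0194) and after normexp background correction (-0.40, adjusted p = 0.048). It also passed without WT P1 replicate 4 (-0.22, adjusted p = 0.0248) and without WT P30 replicate 7 (-0.21, adjusted p just under 0.05). The Mef2c-het value did not pass without P1 replicate 8 (-0.18, adjusted p = 0.0749), P30 replicate 5 (-0.19, adjusted p = 0.0682) or P30 replicate 6 (-0.20, adjusted p = 0.0548). For ILMN_2932078 the differences were -0.03 and -0.05 (adjusted p = 0.732 and 0.52). All 4 probes are listed on one transcript record, and their differences pointed the same way.

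Map2, the microtubule-associated protein of dendrites, gave no called change with age at any of its 3 probes. The brightest (ILMN_3137552) read 13.36, 13.35, 13.54 and 13.52 in WT and 13.28, 13.47, 13.56 and 13.40 in Mef2c-het mice at P1. The P30 arrays read 13.42, 13.38, 13.27 and 13.40 in WT and 13.30, 13.36, 13.42 and 13.25 in Mef2c-het mice. The 4 groups overlapped throughout. The difference was -0.07 in WT (95% interval -0.22 to 0.07, adjusted p = 0.381) and -0.10 in Mef2c-het mice (95% interval -0.24 to 0.05, adjusted p = 0.261). The other 2 probes differed by 0.00 and 0.03 in WT and by -0.16 and -0.15 in Mef2c-het mice, none passing. With arrays scaled to a common median, ILMN_2709782 passed in Mef2c-het mice, at -0.21 (adjusted p = 0.049). These 2 dim probes followed each other (r = 0.90 over the 16 arrays) and the brightest probe followed neither (r = 0.08 for both).

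Map6, the protein that makes microtubules resistant to cold, was the 1 gene whose brightest probe rose. That probe (ILMN_2744006) read 8.70, 8.56, 8.54 and 8.65 in WT and 8.61, 8.70, 8.75 and 8.97 in Mef2c-het mice at P1. Signals at P30 were 9.26, 9.47, 9.43 and 9.42 in WT and 9.23, 9.49, 9.39 and 9.68 in Mef2c-het mice. No P1 array reached the P30 arrays. The change was 0.78 (SE 0.09, adjusted p = 1.53e-06) in WT mice, 1.72-fold higher, and 0.69 (SE 0.09, adjusted p = 6.78e-06) in Mef2c-het mice, 1.61-fold higher. A probe listed on Map6 transcript variant 2 (ILMN_3108372) differed by -0.14 in WT (adjusted p = 0.151) and by 0.09 in Mef2c-het mice (adjusted p = 0.339). Without WT P1 replicate 5 the WT value of that probe passed, at -0.20 (adjusted p = 0.0295).

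**Figure D4:**
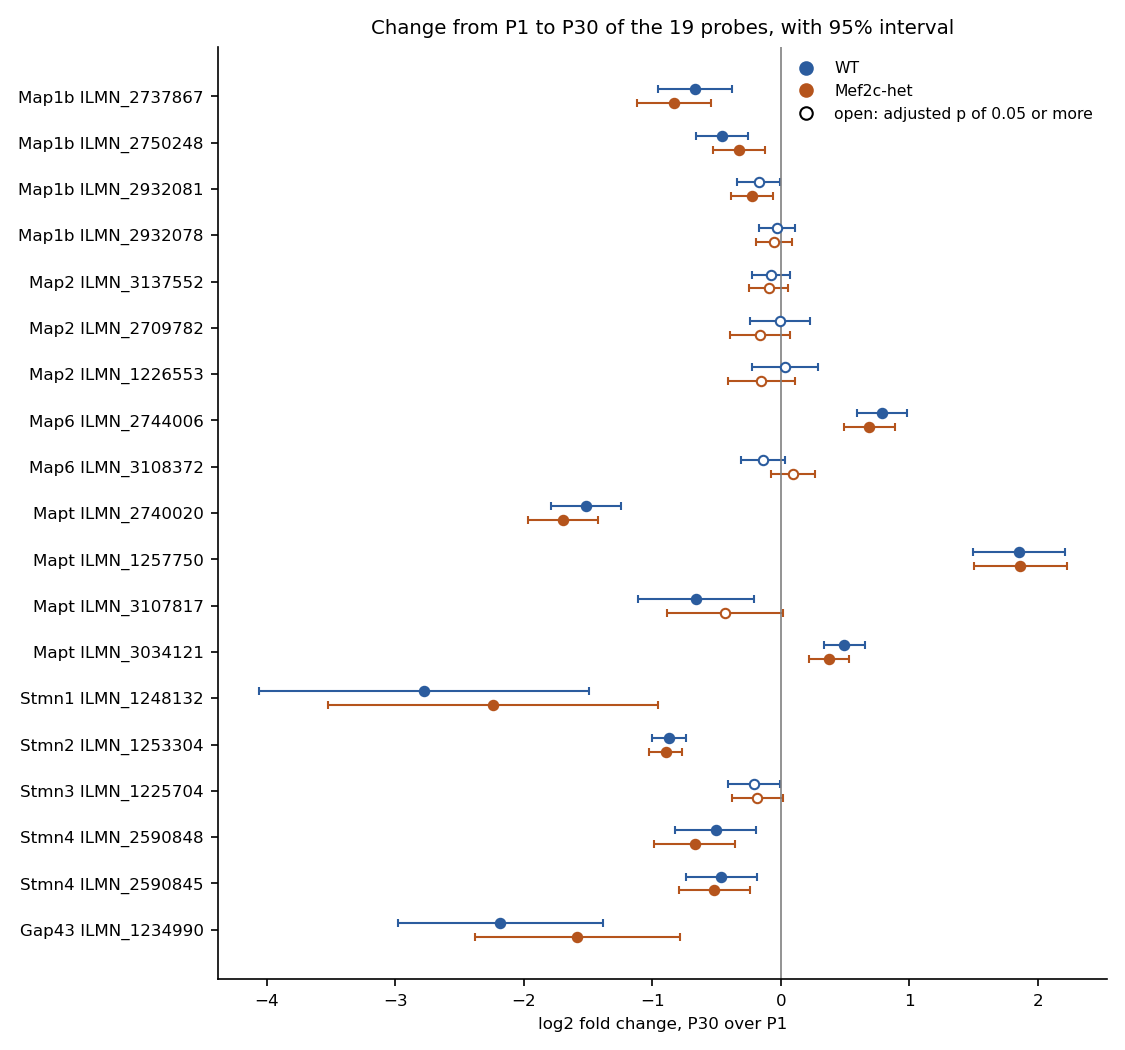
Log2 change from P1 to P30 at each of the 19 probes in WT and Mef2c-het mice, with the 95% interval of the limma fit; open circles have an adjusted p of 0.05 or more. Mapt ILMN_3034121 was not above background at P1, so its plotted change is no measured size. The Mapt probes lie on both sides of 0 (-1.52 and 1.85 in WT), and the intervals of Stmn1 (-2.78 in WT) and Gap43 (-2.18 in WT) are the widest.

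RefSeq promoter windows (GRCm38.p6) were matched for 4 of the 10 genes, and those of 3 measured genes are shown because Map1b fell with age while Map2 and Stmn3 did not pass. Each runs 5′ to 3′ on the gene's strand and ends before the gene's first annotated base. That of Map1b is chr13:99516603-99516852 on the minus strand, that of Map2 chr1:66175079-66175201 on the plus strand, of whose 250 bases the 123 outside the annotated gene are printed, and that of Stmn3 chr2:181314501-181314750 on the minus strand. Capitals mark the letters TATAAA.
Map1b: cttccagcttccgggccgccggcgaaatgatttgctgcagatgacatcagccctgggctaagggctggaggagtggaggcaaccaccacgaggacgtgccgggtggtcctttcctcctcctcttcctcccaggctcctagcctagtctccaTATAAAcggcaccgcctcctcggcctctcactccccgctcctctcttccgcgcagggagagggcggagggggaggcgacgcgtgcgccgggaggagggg
Map2: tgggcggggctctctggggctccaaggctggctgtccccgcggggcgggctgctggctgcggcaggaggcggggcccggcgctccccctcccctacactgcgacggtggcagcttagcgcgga
Stmn3: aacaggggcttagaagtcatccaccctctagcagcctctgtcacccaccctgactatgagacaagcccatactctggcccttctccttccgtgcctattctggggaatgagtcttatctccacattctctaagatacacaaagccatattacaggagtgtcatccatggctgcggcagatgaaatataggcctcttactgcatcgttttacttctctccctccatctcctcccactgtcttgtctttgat
TATAAA was found once in the Map1b window, its first base 99 bases before the start, and in neither other window; 12.4% of 32851 windows of 250 bases hold it on either strand. GC content over 250 bases was 66.4% for Map1b, 81.2% for Map2 and 48.8% for Stmn3, against a median of 52.4% over all windows (quartiles 45.2 and 61.2%). The E-box letters CANNTG occurred once in the Map1b and once in the Stmn3 window and not in that of Map2 (66.2% of all windows). The MEF2 motif, searched on both strands and able to overlap TATAAA, was found in 2.9% of all windows and in none of the 3, which says only that those letters are not in these windows.

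Mef2c genotype was the comparison the study was built on, asking what changes in the hippocampus when 1 copy of Mef2c is lost. At P1, 0 of the 19 probes passed the test between Mef2c-het and WT mice, where 0.0135% of all tested probes passed, and 0 had an unadjusted limma p under 0.05 (2.28% of all probes). At P30, 0 of 19 passed as well, where 0.00677% of all probes passed, and 1 of 19 had an unadjusted p under 0.05 (2.84% of all probes). The differences ranged from -0.13 to 0.20 at P1, with a median of 0.00, and from -0.21 to 0.58 at P30, with a median of 0.01. The arrays of the genotypes did not overlap for 0 of the 19 probes at either age, against 1.42% of all tested probes at P1 and 1.89% at P30.

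How closely the data bound a genotype difference varied from gene to gene. For Stmn2 at P30 the difference was 0.01 with a 95% interval of -0.12 to 0.14, and for the brightest Map2 probe -0.03 (-0.18 to 0.11). Stmn3 differed by 0.00 (-0.20 to 0.20) and the brightest Map6 probe by 0.05 (-0.15 to 0.24). These 4 were the narrowest of the intervals of the brightest probes. The brightest Mapt probe differed by -0.12 (-0.39 to 0.15), the brightest Map1b probe by -0.21 (-0.50 to 0.07) and the brighter Stmn4 probe by 0.03 (-0.28 to 0.35).

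Gap43 and Stmn1 had by far the widest intervals. At P30 Gap43 differed by 0.47 (95% interval -0.33 to 1.27, exact permutation p = 0.257) and Stmn1 by 0.58 (-0.70 to 1.87, exact permutation p = 0.171). The WT group held 2 of the arrays set apart at that age and the Mef2c-het group 1. On the larger clusters alone the difference at P30 was 0.08 (SE 0.10) for Gap43 and 0.19 (SE 0.20) for Stmn1, and at P1 -0.14 (SE 0.09) and -0.04 (SE 0.18). The 1 probe with an unadjusted p under 0.05 was the Map6 variant 2 probe at P30. It read 7.82, 7.72, 7.88 and 7.82 in WT and 8.07, 8.09, 7.85 and 7.92 in Mef2c-het mice, with Mef2c-het replicate 6 within the WT range, a difference of 0.17 (adjusted p = 0.994, exact permutation p = 0.0571).

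**Figure D5:**
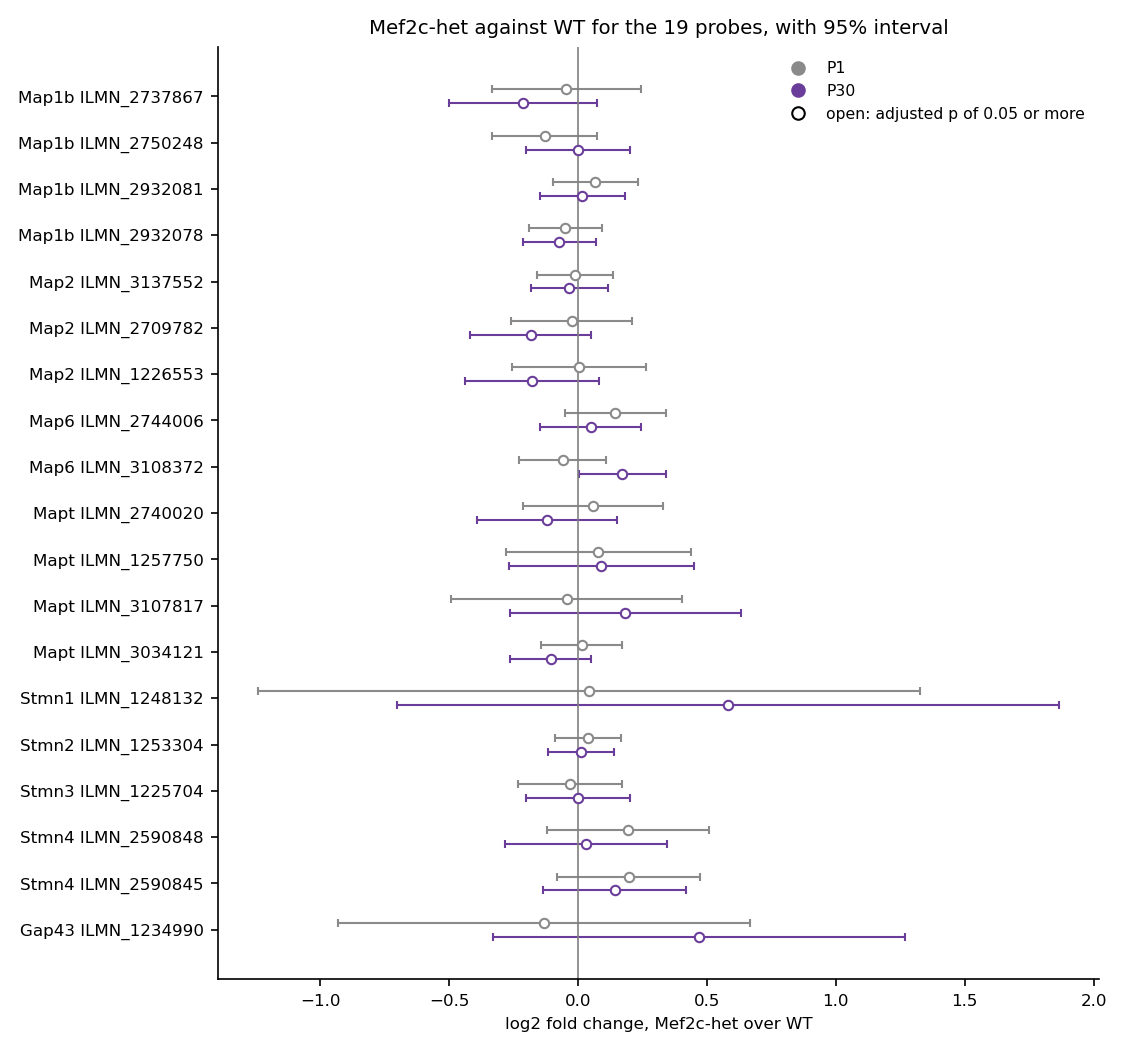
Log2 difference of the 19 probes, Mef2c-het over WT, at P1 and at P30, with the 95% interval of the limma fit; all points are open because none has an adjusted p under 0.05. The widest intervals at P30 are those of Stmn1 (-0.70 to 1.87) and Gap43 (-0.33 to 1.27).

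The genotype effect at P30 was also set against that at P1, which is the difference between the age changes of the genotypes. For this interaction 0 of 19 probes passed, where 0% of all tested probes passed, and 0 had an unadjusted p under 0.05 (2.96% of all probes). The values ranged from -0.18 to 0.60 with a median of -0.03. The largest was that of Gap43, whose fall was -2.18 in WT and -1.58 in Mef2c-het mice. With a block for array cluster the Gap43 interaction was 0.28 (SE 0.11, unadjusted p = 0.0218, adjusted p = 0.987).

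Other microtubule and growth cone genes moved with age in both directions. Of 21 other microtubule-binding genes with a tested probe, 7 rose and 12 fell in WT mice, and 6 rose and 12 fell in Mef2c-het mice. Of all tested probes, 28% were higher and 31.7% lower in WT and 26.9% and 31.4% in Mef2c-het mice. Dcx (doublecortin, of migrating and young neurons) went from 13.22 ± 0.13 to 8.67 ± 0.17 in WT mice (SD, n = 4; change -4.55, adjusted p = 1.77e-15) and changed by -4.59 in Mef2c-het mice. Dpysl5, a collapsin response mediator protein of growing neurites, changed by -3.97 and -4.05. Tppp, which promotes tubulin polymerisation in oligodendrocytes, changed by 3.66 in WT (adjusted p = 6.04e-14) and 3.54 in Mef2c-het mice. Map7, a cofactor of kinesin, changed by 2.06 and 1.90, from P1 signals near background (7.53 in WT and 7.55 in Mef2c-het mice).

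Of 18 tested genes for proteins that bind microtubule ends, 5 rose and 5 fell in WT mice, and 5 rose and 7 fell in Mef2c-het mice (28% and 31.7% of all tested probes in WT, 26.9% and 31.4% in Mef2c-het mice). Mapre1 (EB1, which tracks growing plus ends) changed by -1.40 in WT and -1.58 in Mef2c-het mice, and Slain2 by -0.96 and -1.22. Clip4 changed by 1.52 and 1.45, and Dctn1, the large dynactin subunit, by 0.54 and 0.38. Of 19 tested genes for microtubule severing and tubulin modification, 6 rose and 7 fell in WT and 3 rose and 6 fell in Mef2c-het mice, against the same background. Svbp, the partner of the tubulin-detyrosinating vasohibins, changed by -2.22 and -2.25, and Atat1, the tubulin acetyltransferase, by -2.03 and -2.0. The deacetylase gene Sirt2 changed by 1.15 and 1.01 and the glutamylase gene Ttll11 by 1.22 and 1.15. At P1 Ttll11 read 7.38 in WT and 7.43 in Mef2c-het mice, near background, so the size of its rise is uncertain.

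The enzymes that phosphorylate or dephosphorylate tau, other microtubule-associated proteins and stathmins had 30 tested genes, of which 15 rose and 7 fell in WT (28% and 31.7% of all tested probes) and 13 rose and 6 fell in Mef2c-het mice (26.9% and 31.4%). Camk2a, the alpha subunit of calcium/calmodulin-dependent kinase II, went from 9.83 ± 0.37 to 13.76 ± 0.13 in WT mice (SD, n = 4; 3.93, adjusted p = 1.83e-12) and changed by 3.75 in Mef2c-het mice. Ppp3ca, the catalytic subunit of calcineurin, changed by 1.76 and 1.41. Cdk5r1, the activator of Cdk5, changed by -0.70 and -0.60. Ppp2r2b, a regulatory subunit of phosphatase 2A, changed by -0.79 (SE 0.27, adjusted p = 0.0169) in WT and by -0.63 (SE 0.27) in Mef2c-het mice.

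Among 25 tested growth cone genes and calmodulin-binding partners of Gap43, 8 rose and 11 fell in each genotype (28% and 31.7% of all tested probes in WT, 26.9% and 31.4% in Mef2c-het mice). Nrgn (neurogranin), a postsynaptic calmodulin-binding protein related to Gap43, went from 10.48 ± 0.22 to 13.04 ± 0.12 in WT mice (SD, n = 4; 2.56, adjusted p = 6.38e-11) and changed by 2.50 in Mef2c-het mice. Marcksl1, an actin-binding kinase C substrate, changed by -2.81 and -2.35, and Tmsb10, which binds actin monomers, by -1.76 and -1.71. In these 5 lists 0 genes passed in any genotype comparison by limma, and 0 to 2 genes of a list had an unadjusted p under 0.05 in each.

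Markers of other cell types moved with age beside these genes. Of 9 tested oligodendrocyte markers, Mog, Mobp and Opalin were above background on 0 of 8 P1 arrays and passed the filter through P30, and the other 6 rose in both genotypes. The 9 had a summed signal of 2173 to 2681 in WT mice at P1 and 97093 to 106808 at P30, and of 2311 to 3351 and 92976 to 104657 in Mef2c-het mice. All 6 tested markers of proliferating cells fell in both, from a summed signal of 3900 to 5027 to one of 982 to 1070 in WT mice. Of these, Top2a was above background on 3 of 8 P30 arrays and Ccnb1 and Cdk1 on at most 1. They passed the filter through P1, so the size of their fall was not measured. All 5 tested immature neuron markers fell in WT mice and 3 of 5 in Mef2c-het mice, with a summed signal of 6661 to 7429 at P1 and 1334 to 1419 at P30 in WT mice and of 5683 to 7423 and 1324 to 1469 in Mef2c-het mice. Among these 5, Eomes was above background on 0 of 8 P30 arrays and passed the filter through P1. All 6 tested markers of neurons rose in both. The part of these shifts in cell makeup in the changes of Stmn1, Gap43 and the other genes was not tested.

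Over the 16 arrays, the gene whose pattern was most like that of each measured gene was read as the highest Pearson r with its brightest probe among all tested probes of other genes. It was Dpysl3 for Stmn2 (r = 0.99), Bzw1 for Stmn1 (0.99), Akr1a1 for Mapt (0.99), Ptpre for Gap43 (0.99), Pcbp3 for Map6 (0.98), Insr for Map1b (0.97) and Gpr27 for Stmn4 (0.95). For Map2 and Stmn3 the nearest were Barhl1 and Pde6d, both with r = 0.85. These values describe arrays that share the difference between ages, which most genes that changed with age follow.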

How the data were processed

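Expression was read on 16 1-colour beadchip arrays, 1 per mouse. The authors deposited a table that was not normalised, with a mean bead intensity, a detection p-value, a bead standard error and a bead count for each of 25697 probes and each array; per the labels, lumi and limma were used, with versions not given in the sources used here. Intensities ran from 92.8 to 45402, a median of 36 to 39 beads stood behind a probe, and the number of arrays limits the precision.

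From these values log2 intensities were quantile normalised, probes with a detection p-value under 0.05 on at least 4 of 16 arrays were kept (14777, for 10803 genes), and 4 group means were fitted with limma 3.58.1 in R 4.3.3, with 5 comparisons, empirical Bayes variances and Benjamini-Hochberg adjustment over all kept probes. The fit was checked on simulated data. Probes were named through RefSeq by gene identifier and accession. The genes and gene lists were chosen with earlier results of these data known. Each gene's brightest probe on average was its reference; of each list, the 2 genes with the largest rise and the 2 with the largest fall in WT mice among those passing were named, with any gene passing in a genotype comparison. A few genes that these rules name are not reported here. Alternatives covered background correction, normalisation, filters, probe choice, variance model, arrays fitted, array cluster, sex, replicate number and single arrays.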

Additional observations from a re-analysis of the deposited data

Results flagged for a closer look

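Within each group of 4 arrays, the gap between the most distant array and its neighbour was divided by the whole range, and a ratio above Dixon's 95% critical value for 4 arrays marked an outlying array. Of 76 groups (19 probes in 4 groups) 8 were marked, where 3.8 would be by chance at 0.05.

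Among these, 4 of the 8 concerned Gap43 and Stmn1 on arrays of the smaller clusters. Gap43 read 11.82 on WT P1 replicate 8, with the next array at 12.79 (ratio 0.927), and 11.71 on Mef2c-het P1 replicate 8, with the next at 12.62 (0.845). Stmn1 read 10.06 on Mef2c-het P1 replicate 8, with the next at 11.80 (0.864), and 7.94 on Mef2c-het P30 replicate 7, with the next at 9.56 (0.879).

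The remaining 4 lay on other genes. The brightest Map1b probe read 11.21 on WT P1 replicate 5, with the next at 10.86 (ratio 0.884). The Map2 probe ILMN_2709782 read 9.19 on WT P1 replicate 8, with the next at 8.89 (0.833). The brightest Mapt probe read 12.04 on WT P30 replicate 2, with the next at 12.44 (0.847), and the Mapt probe ILMN_3107817 read 9.38 on WT P1 replicate 4, with the next at 8.18 (0.913).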

How the results depend on the processing

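No call of the 19 probes changed direction under any alternative run. In the genotype comparisons at P1 and P30 and their difference, 0 probes passed in all 368, 369 and 483 alternative values, with lowest adjusted p-values of 0.713, 0.588 and 0.756. Of 350 alternative values for age in WT mice, 338 kept the side of the threshold, 2 lost the call and 10 gained it. The sign changed in 12 values, all at Map2 and Map1b probes that were not called. Of 349 in Mef2c-het mice, 343 kept the side of the threshold, 3 lost the call, 3 gained it and 0 changed sign. With 1 probe per gene, 7 of 9 genes passed with age in WT and 7 of 9 in Mef2c-het mice. Fitted on the 8 Mef2c-het arrays alone, the Mapt probe ILMN_3107817 passed in those mice (-0.44, adjusted p = 0.0028). Over all probes, the genotype counts of 2 at P1 and 1 at P30 were 3 and 1 after normexp and 0 and 0 after scaling to a common median. Background correction by normexp enlarged the changes of dim probes: in WT mice the Map1b probe ILMN_2750248 changed by -0.88, and the Mapt probe ILMN_3107817 by -1.14. The replicate numbers gave no pairing that held throughout: correlations of deviations between same-numbered arrays were 0.09, 0.40 and 0.82 at P1 and 0.17, -0.52 and 0.70 at P30. At P1, Mef2c-het replicates 4 and 8 were closest to the WT array of their own number, and both arrays numbered 8 were set apart. Mef2c-het replicate 1 at P1 and the Mef2c-het arrays compared at P30 were closest to another number. With the replicate block 0 of 19 probes passed between genotypes at either age; between ages no numbers were shared within a genotype. With 4 arrays a group, small differences of Gap43 and Stmn1 were not detectable.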

Other observations

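After the 4 group means were subtracted, the arrays of a group still varied together for some genes. Over the 16 arrays the closest gene to Stmn1 was then Id2, an inhibitor of helix-loop-helix transcription factors (Pearson r = 0.99), and the closest to Gap43 was Clcn3, a chloride/proton exchanger of endosomes (r = 0.99). Among the other genes the closest were Dido1 for Mapt (0.93), Tmem30a for Stmn2 (0.93), Snx16 for Stmn4 (0.89), Zfp704 for Map1b (0.89), Isg15 for Stmn3 (0.88) and Zfp35 for Map2 (0.86). Each is the highest of all tested probes of other genes and describes these arrays, which share the clusters given above.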
